A study of Rattus norvegicus with 9 samples.

Results

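The expression of 9 genes that brown fat uses to make heat was followed in vessels that drain lymph from the rat stomach, labelled gastric lymphatic vessel. The genes were Ucp1, Ppargc1a, Cidea, Dio2, Prdm16, Elovl3, Adrb3, Cox7a1 and Cox8b. They were chosen by symbol as textbook brown fat genes, with earlier results of these data known. All 9 symbols were found among the 18964 genes of the deposited table, and 8 of the 9 passed the filter on low counts that left 14643 genes for testing. The gene that did not pass was Elovl3. Poly(A) RNA was sequenced from vessels of male wild-type Sprague-Dawley rats of 180 to 220 g, whose age the labels do not give, in 3 groups of 3 libraries. BXD rats were fasted for 12 h and kept singly for 4 h in a pool filled to 15 cm and held at 22 °C, a stress that produces gastric ulcers. At 30 min after leaving the pool they received the herbal medicine Banxia Xiexin decoction (10 ml/kg, gavage). Model rats had the same fast and the same stress and a gavage of equal volume without the decoction, saline by the sample labels and distilled water by the treatment protocol. Control rats were fasted for 12 h, were not put in water, and were given distilled water by gavage according to the protocol. The study had 6 rats in each group. The labels do not tie libraries to rats, so a p-value here measures the spread between libraries, which may be partly technical.

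Brown fat burns fuel to release heat. Noradrenaline from sympathetic nerves acts on the β3-adrenergic receptor of the fat cell, cyclic AMP rises inside the cell, fatty acids leave the lipid droplets, and uncoupling protein 1 lets protons flow back across the inner mitochondrial membrane without making ATP. The same signal raises the coactivator PGC-1α, which drives mitochondrial genes, and the deiodinase that turns thyroxine into the active thyroid hormone. Collecting lymphatic vessels lie in fat, so a vessel sample can hold fat cells beside endothelium and smooth muscle.

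The libraries held between 12313813 and 13455705 estimated counts. Levels are given in CPM, counts divided by a library size that was corrected for composition, except where the deposited TPM, a level per transcript length, is named. Markers of lymphatic endothelium were present in every library, with 7 genes summing to 805 to 1759 CPM. Genes of every kind of fat cell were present as well. The 16 fat cell markers, among them Adipoq, Plin1, Fabp4 and Lpl, summed to 19681, 21905 and 29999 CPM in BXD, 28873, 48909 and 33694 CPM in model and 11088, 11834 and 11250 CPM in control libraries, and none of the 16 was at 0 in any group. In these bulk samples, a different number of fat cells and a different amount of RNA per fat cell cannot be told apart. Several libraries stood apart in other markers. The 20 striated muscle genes summed to 9742 and 5403 CPM in BXD replicates 1 and 3, against 95.3 CPM in BXD replicate 2, 40.9 to 601 CPM in model and 52.3 to 60.8 CPM in control libraries. The 12 sympathetic nerve genes reached 232 CPM in BXD replicate 3 and 354 CPM in control replicate 2, against 44.9 to 91.5 CPM in the other 7 libraries. The plot of summed marker levels shows these libraries.

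**Figure D1:**
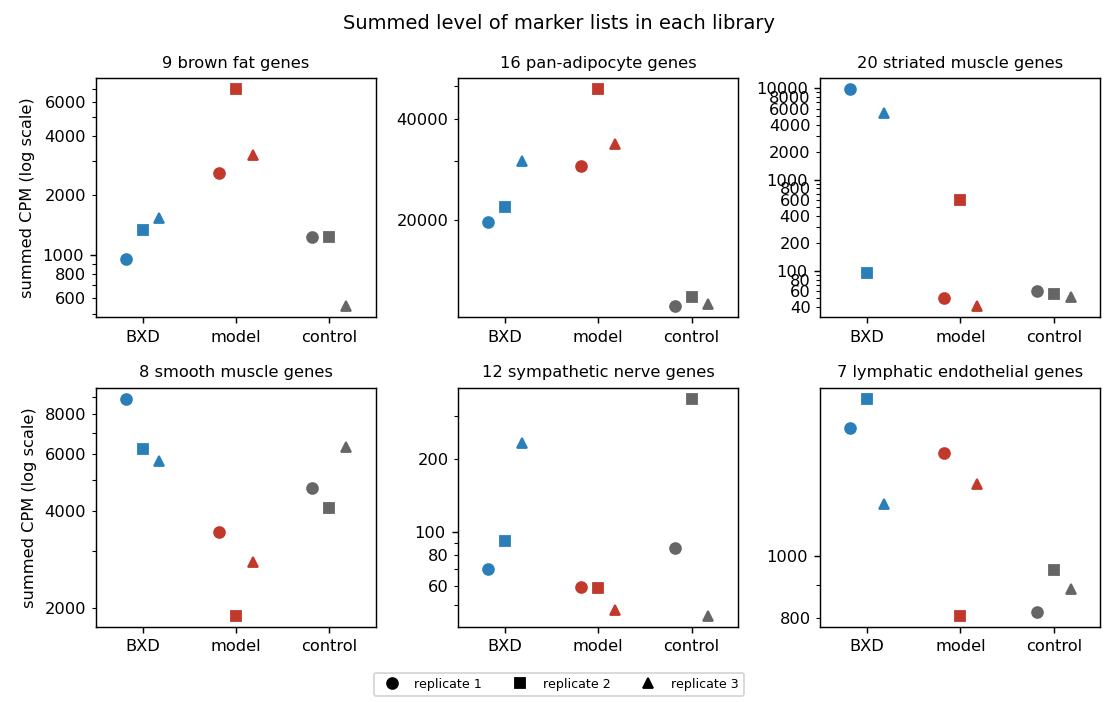
Summed CPM of 6 gene lists (vertical axes, log scale) in each library of the BXD, model and control groups (horizontal axis), 1 point a library with the replicate number given by its shape. The fat cell list lies lowest in the 3 controls, and the striated muscle list is high in BXD replicates 1 and 3.

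In vessels of model rats, 5 of the 8 tested brown fat genes were higher than in controls and 1 was lower. Ppargc1a rose 10.5-fold, Ucp1 4.76-fold, Dio2 4.42-fold, Cidea 3.12-fold and Cox8b 2.94-fold, whereas Adrb3 fell, 2.42-fold lower. All 6 had groups that did not overlap, while Prdm16 and Cox7a1 did not pass the test. Across all 14643 genes, 42.2% were called in this comparison at an adjusted p under 0.05 (edgeR's quasi-likelihood test, Benjamini-Hochberg adjustment), 21.6% as higher and 20.6% as lower. Groups that did not overlap were more common than calls, with 28.9% of all genes higher and 29.4% lower. Of the 16 fat cell markers, 15 were called higher in the same comparison and 0 lower, and values relative to them follow after the single genes.

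**Figure D2:**
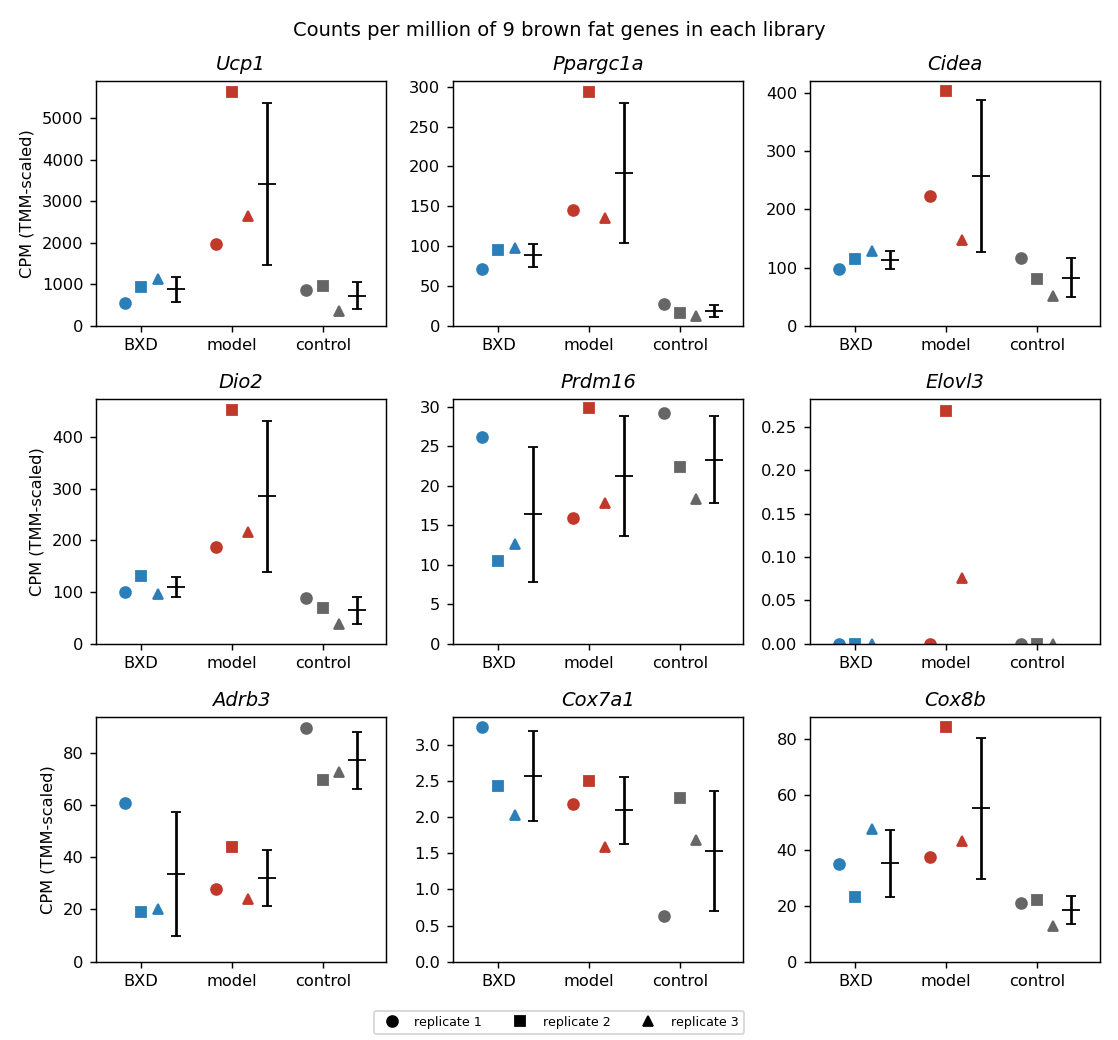
CPM of each of the 9 genes (vertical axes, linear scale from 0) in every library of the BXD, model and control groups, with the replicate number given by the shape and the mean and SD of 3 libraries drawn beside the points for each gene but Elovl3. Model replicate 2 is the highest of the 9 libraries for Ucp1, Ppargc1a, Cidea, Dio2, Prdm16 and Cox8b, and Adrb3 is highest in the controls.

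Ucp1 encodes uncoupling protein 1, the proton channel that defines the brown fat cell (gene 24860, chromosome 19, 24456976 to 24464808, Rnor_6.0). It had 549.7, 939 and 1133 CPM in BXD, 1959, 5628 and 2639 CPM in model and 862, 944 and 339.95 CPM in control libraries. The 3 model libraries were the highest of the 9, and the BXD and control libraries overlapped. Model over control, the log2 fold change was 2.25 (SE 0.50, edgeR's quasi-likelihood adjusted p = 0.00745). Per transcript length, Ucp1 was among the most abundant transcripts of the tissue, at 6789 TPM and rank 7 of 18964 genes in model replicate 2, 3615 TPM and rank 31 in model replicate 3, and 2595 TPM and rank 46 in model replicate 1. In controls it stood at rank 84 to 223, with 588.5 to 1723 TPM, so the transcript was abundant in rats without the water stress as well. Its counts were fractional in all 9 libraries, which means that the authors' counting assigned part of its reads by estimate. The related uncouplers Ucp2 and Ucp3, which are not specific to brown fat, did not pass the test. Ucp2 had 171 to 230 CPM in BXD, 191 to 249.6 CPM in model and 205 to 300.4 CPM in control libraries.

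Dio2 encodes the type 2 deiodinase, which makes active thyroid hormone inside the cell (gene 65162, chromosome 6, 114475156 to 114489443). Its levels were 100.3, 132 and 96.3 CPM in BXD, 188, 453 and 215 CPM in model and 87.8, 68.4 and 37.1 CPM in control libraries. Every BXD library exceeded every control library and lay below every model library. The log2 fold change of model over control was 2.15 (SE 0.39, edgeR adjusted p = 0.00331). Dio3, whose enzyme inactivates the hormone, was scarce but rose as well, with 2.28, 4.57 and 7.44 CPM in model against 0.638, 0.649 and 0.63 CPM in control libraries (log2 fold change 2.88, SE 0.43). Of 9 tested genes that carry, sense or act on thyroid hormone, Dio2 apart, 5 were called higher and 0 lower. Over all genes 21.6% were called higher and 20.6% lower. The median log2 fold change of the 9 was 0.66 against -0.01 over all genes. With library size alone 3 were called higher, as were 1620 of all 14643 genes, and the median was 0.38, against -0.28 over all genes. Scaled to the fat cell markers 1 was called higher and 7 lower, with a median of -1.06. That scaling called 0.362% of all genes higher and 88.8% lower, with a median of -1.65 over all genes. The 5 included, besides Dio3, the transporter Slc16a10, the receptor coactivator Med1 and Thrsp, a thyroid-responsive gene of fat. The receptors Thra and Thrb were not called, with log2 fold changes of 0.39 and 0.57.

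Cidea encodes a protein of the lipid droplet surface that is plentiful in brown fat (gene 291541, chromosome 18, 63082861 to 63108450). It was measured at 97.1, 115 and 128 CPM in BXD, 222, 403 and 148 CPM in model and 117, 80.0 and 50.9 CPM in control libraries. All model libraries exceeded all others, and BXD and control libraries overlapped in 1 control. Its log2 fold change in model vessels over control was 1.64 (SE 0.38, edgeR adjusted p = 0.00931). The paralogue Cidec, found on the droplets of white fat cells, rose by a similar amount, with a log2 fold change of 1.86 (SE 0.30). Elovl3, a fatty acid elongase of brown fat, was all but absent. It had 0 counts in all 3 BXD libraries, 0, 3 and 1 counts in model and 0 counts in all 3 control libraries, and 3 counts, the limit that a count of 0 allows, correspond to 0.195 to 0.269 CPM. Elovl3 was therefore not detectable at this depth in 7 of the 9 libraries and was not tested. Its relative Elovl6, an elongase of fat synthesis, had 0.167, 0.862 and 1.51 CPM in BXD, 15.8, 14.8 and 4.02 CPM in model and 0 counts in all 3 control libraries, and was called higher in model than in control vessels. Elovl5 rose too, with a log2 fold change of 0.67 (SE 0.14), and Elovl7 fell by 0.84 on the log2 scale (SE 0.27).

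Cox8b and Cox7a1 encode subunits of cytochrome c oxidase, the last complex of the respiratory chain, in the isoforms of heart, skeletal muscle and brown fat. Cox8b (gene 25250, chromosome 1, 213648787 to 213650247) had 35.1, 23.4 and 47.6 CPM in BXD, 37.5, 84.3 and 43.4 CPM in model and 21.2, 22.0 and 13.0 CPM in control libraries. It lay above every control in all 6 stressed libraries, and BXD and model libraries overlapped. The log2 fold change of model over control was 1.55 (SE 0.37, edgeR adjusted p = 0.00954). Per length its level was high, at 544 to 1154 TPM in BXD, 804 to 1758 TPM in model and 364 to 622 TPM in control libraries. Cox7a1 (gene 100910772, chromosome 1, 88619619 to 88650672) was scarce by comparison, with 2.54 to 4.08 TPM in BXD, 1.61 to 2.65 TPM in model and 0.79 to 3.11 TPM in control libraries, and did not pass the test (log2 fold change 0.44, SE 0.44, edgeR adjusted p = 0.440). RefSeq gives the symbol Cox7a1 to another row of the table, gene 687508 (chromosome 1, 91070593 to 91096190). That row had 3.11 to 3.67 TPM in BXD, 2.58 to 3.22 TPM in model and 1.95 to 3.49 TPM in control libraries and was not called either (log2 fold change 0.55, SE 0.26). Both rows had fractional counts, so reads may be split between near-identical copies, and the level of Cox7a1 is uncertain. Of 13 other nuclear subunits of the same complex, 10 were called higher and 0 lower in model vessels. Over all genes 21.6% were called higher and 20.6% lower. The median log2 fold change of the 13 was 0.93. Without control replicate 3 the count called higher was 6, and that over all genes was 2195 in place of 3161. Scaled to the fat cell markers 0 were called higher and 12 lower, with a median of -0.79. That scaling called 0.362% of all genes higher and 88.8% lower, with a median of -1.65 over all genes. The 10 were forms found in most tissues, such as Cox5a (log2 fold change 1.14, SE 0.25) and Cox4i1 (0.93, SE 0.20). Cox8a, the common counterpart of Cox8b, had a log2 fold change of 0.76 (SE 0.17). The contrasts in level differed between the 2 scales. In model libraries Cox8b averaged 55.1 CPM and 1214 TPM, Cox8a 339 CPM and 1921 TPM, and Cox7a1 2.10 CPM and 2.21 TPM. The muscle form Cox6a2 followed the striated muscle genes, with 36.6 and 23.8 CPM in BXD replicates 1 and 3 and at most 3.22 CPM in the other 7 libraries. Cox8b too was higher in BXD replicates 1 and 3 than in BXD replicate 2. Its highest level was in model replicate 2, where the striated muscle genes summed to 601 CPM, against 50.6 and 40.9 CPM in the other model libraries. The part of striated muscle in the level of Cox8b was not tested.

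Ppargc1a encodes PGC-1α, the coactivator that cyclic AMP induces in brown fat and that turns on mitochondrial genes (gene 83516, chromosome 14, 63095291 to 63190688). It had the largest fold changes of the 8 tested genes in both comparisons with control, with 71.4, 95.02 and 97.8 CPM in BXD, 146, 293 and 136 CPM in model and 27.0, 15.9 and 12.0 CPM in control libraries. The 3 groups did not overlap and stood in the order model, BXD, control. The log2 fold change was 3.39 for model over control (SE 0.38, edgeR adjusted p = 0.000523) and 2.27 for BXD over control (SE 0.37, edgeR adjusted p = 0.00283). In the first of these comparisons Ppargc1a lay at percentile 99.5 of all tested genes by log2 fold change. Its relative Ppargc1b rose less, with 15.8, 39.3 and 18.1 CPM in model against 12.0, 8.11 and 5.11 CPM in control libraries (log2 fold change 1.54, SE 0.40). The third member of that family, Pprc1, was called higher in BXD than in control vessels (log2 fold change 0.90, SE 0.14) and was not called in model vessels (0.35, SE 0.14).

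Since Ppargc1a and Ucp1 are the genes for which cyclic AMP is the best known inducer, the promoter sequences of both are shown, 250 bases before the start that RefSeq gives in the GRCr8 build, 5′ to 3′ on the strand of the gene. Capitals mark a full cyclic AMP response element, TGACGTCA, in Ppargc1a, and the first 5 letters of that element, TGACG, and a TATA box, TATAAA, in Ucp1. The Ppargc1a stretch is chr14:63634058-63634307 on the + strand, at a start inside the gene as RefSeq draws it, and the Ucp1 stretch is chr19:41721422-41721671 on the − strand.
Ppargc1a: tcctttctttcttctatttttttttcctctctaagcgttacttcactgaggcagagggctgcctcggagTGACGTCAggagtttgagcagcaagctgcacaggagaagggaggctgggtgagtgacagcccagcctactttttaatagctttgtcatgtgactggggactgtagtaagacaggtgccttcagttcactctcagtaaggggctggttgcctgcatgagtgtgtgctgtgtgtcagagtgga
Ucp1: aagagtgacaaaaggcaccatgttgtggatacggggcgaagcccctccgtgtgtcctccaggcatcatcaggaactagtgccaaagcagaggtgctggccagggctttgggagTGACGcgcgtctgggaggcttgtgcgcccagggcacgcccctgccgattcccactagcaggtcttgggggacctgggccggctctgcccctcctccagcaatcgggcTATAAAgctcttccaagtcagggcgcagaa
Of the 9 genes, 8 had an entry in that table, and Adrb3 was not among them. Over the 250 bases before and 50 bases after the start, the full element was found on either strand in the Ppargc1a promoter alone among these 8, its first base 181 bases before the start, and in 1.83% of 33469 rat promoters of that length. These 5 letters, which also lie inside the full one on both strands, were found in Ppargc1a and in Ucp1, where they began 137 bases before the start, and in 21.2% of promoters. The letters of the TATA box, TATAAA, were found in Ucp1, Cox8b and Dio2, beginning 30, 39 and 220 bases before the start. Anywhere in the window they were found in 14.2% of promoters. The last motif, TNAAGGTCA, the element of the estrogen-related receptors, was found in none of the 8 and in 1.2% of all promoters. A match describes letters in the window, not a bound site.

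Adrb3 encodes the β3-adrenergic receptor, through which noradrenaline reaches brown and white fat cells (gene 25645, chromosome 16, 69003541 to 69006632). Unlike the 5 genes that rose in model vessels it was lower there, with 60.9, 19.2 and 20.2 CPM in BXD, 27.7, 44.1 and 24.1 CPM in model and 89.6, 69.4 and 72.4 CPM in control libraries. Every stressed library lay below every control, and BXD replicate 1 lay well above the other stressed libraries. Model against control, the log2 fold change was -1.27 (SE 0.43, edgeR adjusted p = 0.0403). The call was lost without control replicate 1, 2 or 3 or without model replicate 1 or 3, at adjusted p of 0.0986, 0.0686, 0.0730, 0.110 and 0.116. For BXD against control the log2 fold change was -1.21 and missed the threshold (SE 0.43, edgeR adjusted p = 0.0602). Without BXD replicate 1, one of the 2 libraries with striated muscle transcripts, Adrb3 was called lower in BXD vessels too, with a log2 fold change of -1.97 and an edgeR adjusted p of 0.00214. The related receptor gene Adrb1 stayed between 0.528 and 5.37 CPM in all libraries and was not called.

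Prdm16 encodes a transcriptional regulator that sets the identity of brown fat cells (gene 100366024, chromosome 5, 171662277 to 171711561). It had 26.2, 10.4 and 12.6 CPM in BXD, 15.9, 29.9 and 17.8 CPM in model and 29.2, 22.4 and 18.3 CPM in control libraries. The 3 groups overlapped, and the log2 fold change of model over control was -0.14 (95% interval -0.96 to 0.69, edgeR adjusted p = 0.784). For BXD against control it was -0.51 (SE 0.37, adjusted p = 0.324), and without BXD replicate 1 it was -1.02, with an edgeR adjusted p of 0.0390. Per length Prdm16 was among the rarest of the 9, at 1.57 to 3.83 TPM in BXD, 2.15 to 3.67 TPM in model and 3.22 to 5.13 TPM in control libraries. Deviations from the group means of Prdm16 and Adrb3 went together across the 9 libraries, with a Pearson r of 0.93, and in BXD replicate 1 both were well above the other 2 BXD libraries.

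**Figure D3:**
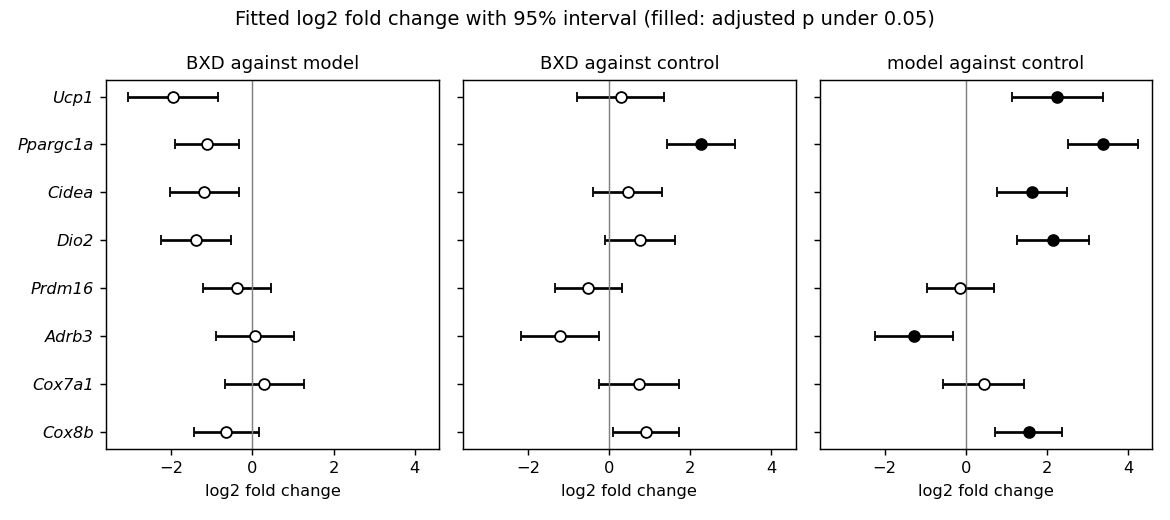
Fitted log2 fold change (horizontal axis) with its 95% interval for the 8 tested genes in the 3 comparisons, from 1 edgeR fit to all 9 libraries, where filled points passed an adjusted p of 0.05. Model against control holds 5 filled points above 0 and 1 below, BXD against control holds Ppargc1a alone, and BXD against model holds none.

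Set against vessels of model rats, those of BXD rats showed 0 calls among the 8 genes by edgeR, although 4 genes that were high in model vessels were lower in every BXD library. The log2 fold change was -1.96 for Ucp1 (SE 0.49), -1.38 for Dio2 (SE 0.38), -1.18 for Cidea (SE 0.38) and -1.12 for Ppargc1a (SE 0.35), at edgeR adjusted p of 0.110, 0.125, 0.144 and 0.138. These 4 genes had groups that did not overlap, with every BXD library below every model library, which 11.8% of all genes showed in that direction. They had an unadjusted p under 0.05, as did 20.9% of all genes, and only 9 of 14643 genes, 0.0615%, were called in this comparison at all. DESeq2, which called 3.3% of the genes it tested lower, called the 4 lower on the same counts, at adjusted p of 0.00110 for Ucp1, 0.00850 for Dio2, 0.0272 for Cidea and 0.0279 for Ppargc1a, and limma-voom called 0 of the 8. The authors' deposited table, whose q-values come from DESeq2, gives q-values of 0.000234 for Ucp1, 0.00408 for Dio2, 0.0231 for Cidea and 0.0199 for Ppargc1a. Whether these genes were lower in BXD than in model vessels thus depended on the test. Cox8b had a log2 fold change of -0.64 (95% interval -1.44 to 0.16), Prdm16 of -0.37 (-1.21 to 0.46), Adrb3 of 0.07 (-0.91 to 1.04) and Cox7a1 of 0.30 (-0.68 to 1.27).

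Against controls, BXD vessels differed by 1 call among the 8 genes, the rise of Ppargc1a given above, in a comparison in which 30.3% of all genes were called with 16.1% called higher and 14.3% lower. Dio2 and Cox8b had every BXD library above every control, as 23.8% of all genes did, with log2 fold changes of 0.76 (SE 0.38, edgeR adjusted p = 0.156) and 0.92 (SE 0.36, edgeR adjusted p = 0.0838). Adrb3 was the 1 gene with every BXD library below, as 24.8% of all genes were. The log2 fold change of Ucp1 was 0.29 (95% interval -0.78 to 1.36) and that of Cidea 0.46 (95% interval -0.39 to 1.30). Ucp1 averaged 874 ± 297 CPM in BXD, 3409 ± 1952 CPM in model and 715 ± 328 CPM in control libraries (SD, n = 3 each). Per length the BXD and control means were 1261 ± 427 TPM and 1267 ± 599 TPM (SD, n = 3 each). Both comparisons with control share the control libraries, and both with model share the model libraries, so the sets of values are not independent of each other.

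The brown fat genes were also set against the fat cell genes of the same library. For each library, the mean log2 CPM of the 16 fat cell markers was subtracted from the log2 CPM of the gene, and the groups were compared with an exact two-sided permutation test, for which 0.1 is the smallest p that 3 against 3 libraries allow. Ppargc1a remained higher in model vessels on this scale, at -2.31 ± 0.25 in model and -4.31 ± 0.51 in control libraries, a difference of 1.99 (exact permutation p = 0.1). Dio2 had a difference of 0.75 (exact permutation p = 0.1) and Ucp1 of 0.87, with 1 control library above 1 model library (exact permutation p = 0.2). Cidea and Cox8b differed by 0.23 and 0.12, less than the SD among the control libraries of 0.52 and 0.35. Adrb3 was lower by far, at -4.85 ± 0.15 in model against -2.17 ± 0.15 in control libraries (SD, n = 3 each), a difference of -2.67 (exact permutation p = 0.1). Prdm16, which did not pass the test in CPM, was lower as well, with a difference of -1.53 (exact permutation p = 0.1). The subtracted mean was itself higher in stressed libraries. It was 8.94, 9.09 and 9.56 in BXD, 9.54, 10.2 and 9.63 in model and 8.52, 8.45 and 8.36 in control libraries. A gene with unchanged CPM is therefore lower in stressed libraries on this scale. In BXD libraries Ucp1 was at 0.51 ± 0.32 on this scale, below the model libraries at 1.78 ± 0.41 without overlap, a difference of -1.27 (exact permutation p = 0.1). Dio2 differed by -0.67 between the same groups (exact permutation p = 0.1), and Cox8b by 0.01. BXD over control, Ppargc1a differed by 1.56, Adrb3 by -2.16 and Prdm16 by -1.35, each without overlap (exact permutation p = 0.1 each). The subtracted markers are those of fat cells in general, but they include Lep and Retn, which white fat expresses more than brown. This scale says how the brown fat genes stood relative to these 16 markers and not how many fat cells a sample held.

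**Figure D4:**
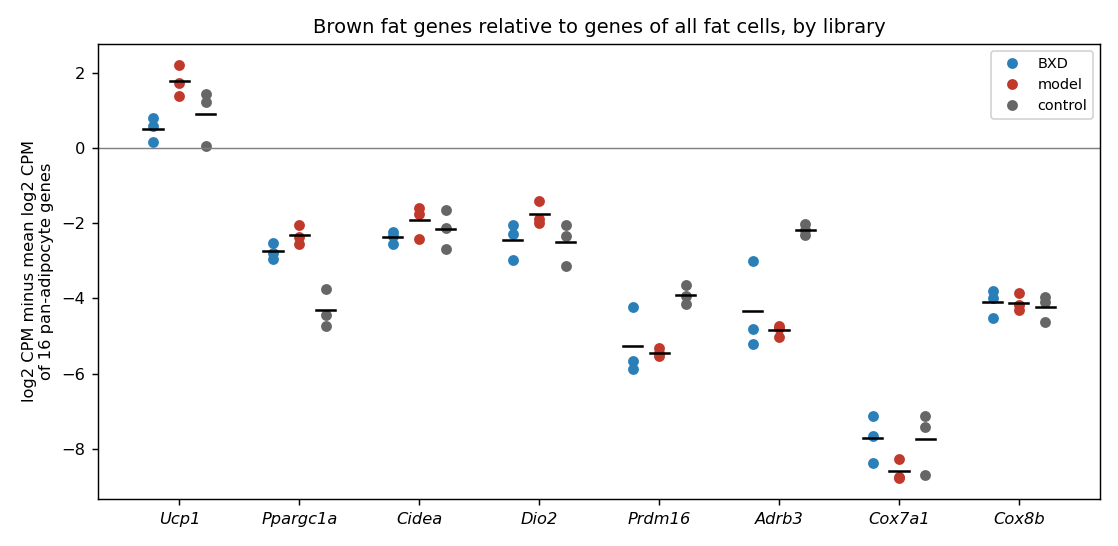
log2 CPM of each of the 8 tested genes minus the mean log2 CPM of 16 fat cell markers of the same library (vertical axis), 1 point a library, with a black bar at the mean of each group. Ppargc1a lies higher in BXD and model than in control libraries, Adrb3 lies lower, and Cidea and Cox8b overlap between the groups.

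The fit was also scaled to the 16 fat cell genes in place of total composition, which moved the median of all genes to -1.65 in model against control vessels. With it 0.362% of all genes were called higher in that comparison and 88.8% lower. Ppargc1a was still called higher (log2 fold change 1.64, edgeR adjusted p = 0.000143), and Adrb3 (-2.98, adjusted p = 0.000257) and Prdm16 (-1.86, adjusted p = 0.000424) were called lower. Ucp1 and Dio2 were no longer called at log2 fold changes of 0.48 and 0.38, Cidea and Cox8b changed sign at -0.10 and -0.19, and Cox7a1 was called lower at -1.20 (adjusted p = 0.0390). Against the median of all genes Ppargc1a, Ucp1, Dio2, Cidea and Cox8b stood well above, Cox7a1 above by less and Adrb3 below, while Prdm16 lay near it. In BXD against model vessels Ucp1 was called lower with it, at a log2 fold change of -1.27 (edgeR adjusted p = 0.0423), where the median of all genes stood at 0.61 and 0.0546% of all genes were called lower.

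Other genes of the brown fat programme were followed from lists. Of 19 tested further brown fat genes, 10 were called higher and 0 lower in model against control vessels. Over all genes 21.6% were called higher and 20.6% lower. The median log2 fold change of the 19 was 1.25, against -0.01 over all genes and 1.44 over the 16 fat cell markers. The median of the brown fat list turned to -0.57 when scaled to the fat cell markers, where the median of all genes was -1.65. Without model replicate 2 the count of brown fat genes called higher was 6 of 19. It was also 6 without control replicate 3 or with library size alone. Higher calls over all genes numbered 2524, 2195 and 1620 in these settings, in that order, in place of 3161. Fabp3, a fatty acid carrier of oxidative tissues, had 82.8, 374 and 254 CPM in model against 29.6, 54.5 and 19.2 CPM in control libraries (log2 fold change 2.78, SE 0.63). Pank1, which starts coenzyme A synthesis, had a log2 fold change of 2.18 (SE 0.42) and Slc36a2, an amino acid transporter of brown fat cells, of 1.41 (SE 0.23). Gpr3, a receptor that raises cyclic AMP without a ligand, was rare in controls, with 2.19, 3.04 and 1.52 CPM in model against 0.213, 0.324 and 0.21 CPM in control libraries, and was called higher. Of the same 19 genes, 0 were called in BXD against model vessels by edgeR, with a median log2 fold change of -0.93. DESeq2 called 7 of them lower, as it did 3.3% of the genes it tested. Otop1 is an example of a proton channel gene of brown fat in that comparison, with 3.42, 8.15 and 9.35 CPM in BXD against 15.8, 72.4 and 32.6 CPM in model libraries (log2 fold change -2.52, SE 0.60, edgeR adjusted p = 0.104). BXD against control, 2 were called higher, Pdk4 and Gpr3, and 1 lower, the thioesterase gene Acot11. In that comparison 16.1% of all genes were called higher and 14.3% lower. The median of the 19 genes was 0.12 and turned to -0.09 with library size alone, where the median of all genes was -0.23. Without control replicate 3 none of the 19 was called higher, while 1519 of all genes were, in place of 2355. Gpr3 was high in 1 BXD library, with 8.68, 0.784 and 0.528 CPM.

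Of 18 tested factors that switch brown fat genes on, 7 were called higher and 2 lower in model against control vessels. Over all genes 21.6% were called higher and 20.6% lower in that comparison. The median log2 fold change of the 18 was 0.54. Cebpa, a master factor of fat cells, had 541, 1123 and 677 CPM in model against 263, 237 and 188 CPM in control libraries (log2 fold change 1.77, SE 0.26), and Zbtb16 had a log2 fold change of 1.83 (SE 0.40). Ehmt1, a histone methyltransferase that works with Prdm16, fell by 0.97 on the log2 scale (SE 0.12) and Lhx8, a marker factor of brown fat, by 0.84 (SE 0.29). Pparg, the receptor that all fat cells need, was not called, with a log2 fold change of -0.06 (SE 0.24), and Esrra, which acts with PGC-1α, had 0.49 (SE 0.27) without a call. The count called higher was 4 of 18 without model replicate 2 and 3 of 18 without control replicate 3. Higher calls over all genes numbered 2524 and 2195 in these fits, in place of 3161. Of 9 repressors of the programme, 4 were called higher and 1 lower, with a median of 0.13 that turned to -0.15 with library size alone. Those that rose were Tle3 (log2 fold change 1.46, SE 0.16), Foxo1 (1.32, SE 0.18), Nrip1 (1.23, SE 0.22) and Ncor1 (0.60, SE 0.10), and Twist1 fell. These 4 were also called higher in BXD than in control vessels. Of 8 markers of beige fat, the brown-like cells of white depots, 1 was called, Car4, with a log2 fold change of 0.74 (SE 0.21), and the median was 0.05 and turned to -0.22 with library size alone. Scaled to the fat cell markers the medians of the factors, the repressors and the beige markers turned to -1.14, -1.53 and -1.59. The median of all genes was -1.65 with that scaling and -0.28 with library size alone.

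Of 23 tested cyclic AMP pathway genes between receptor and lipase, Adrb3 apart, 9 were called higher and 3 lower in model against control vessels. Over all genes 21.6% were called higher and 20.6% lower in that comparison. The median log2 fold change of the 23 was 0.46. The median was 0.27 without model replicate 2 and 0.18 with library size alone, where those of all genes were -0.02 and -0.28. Scaled to the fat cell markers the median of the list turned to -1.23, with 1 called higher and 16 lower. That scaling called 0.362% of all genes higher and 88.8% lower, with a median of -1.65 over all genes. The phosphodiesterases that break cyclic AMP down were among the widest changes. Pde3b had 182, 185 and 257 CPM in BXD, 216, 517 and 298 CPM in model and 53.1, 79.0 and 64.7 CPM in control libraries, with a log2 fold change of 2.39 for model over control (SE 0.32). Pde4d had a log2 fold change of 2.10 in the same comparison (SE 0.29), and both genes were also called higher in BXD than in control vessels. The lipases Pnpla2 and Lipe, which release the fatty acids, had log2 fold changes of 1.48 (SE 0.27) and 1.36 (SE 0.21). Prkar2b, a regulatory subunit of protein kinase A, had 1.31 (SE 0.30). The factor Creb1 fell, with 25.5, 27.8 and 28.2 CPM in model against 57.6, 53.1 and 60.1 CPM in control libraries (log2 fold change -1.07, SE 0.15). The cyclase Adcy4 and the arrestin Arrb1 fell too, by 0.98 (SE 0.15) and 0.63 (SE 0.11) on the log2 scale. Sik1, an early target of cyclic AMP, reached 286 CPM in BXD replicate 1, against 35.2 to 125 CPM in the other 8 libraries, and was not called. In BXD against control vessels 8 genes of the list were called higher and 4 lower (7 and 2 without control replicate 3). Over all genes 16.1% were called higher and 14.3% lower there. Without control replicate 3 the calls over all genes numbered 1519 higher and 1294 lower, in place of 2355 and 2089. In BXD against model vessels 0 genes of the list were called by edgeR and 3 by DESeq2, which called 1107 of all genes there. Genes of sympathetic nerve cells, the source of noradrenaline, were led by 2 libraries as given above, and 4 of 11 tested were called lower in model than in control vessels. That count was 1 without model replicate 2, 7 without control replicate 3 and 0 with limma-voom. Lower calls over all genes numbered 2103, 2224 and 3035 in these settings and 3016 in the main fit. The part of nerve, muscle and fat cell content in the values of the brown fat genes was not tested.

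Genes whose log2 CPM over the 9 libraries was most like that of each brown fat gene were listed by Pearson r, as a description of libraries that fall into the same 3 groups. For Ucp1 they were Slc7a15 (r = 0.99), Lrp6 (0.99) and Minos1 (0.98), for Ppargc1a Lrrc59, Arfgef1 and Bcl2l13 (0.99 each), and for Cidea Cox5a (0.99), Ndufa2 (0.99) and Cs (0.99), which encode a cytochrome oxidase subunit, a complex I subunit and citrate synthase. For Dio2 they were Mcts1 (0.98), Pank1 (0.98) and Tmem64 (0.98), and for Cox8b Mgst3 (0.99), a gene known only as LOC103694872 (0.99) and Smim20 (0.98). Adrb3 had Kifc3 (0.98), March9 (0.97) and Hdac5 (0.97) as its nearest, and Prdm16 had Adck1 (0.95), Lekr1 (0.94) and Vegfa (0.93). Among themselves Ucp1, Ppargc1a, Cidea, Dio2 and Cox8b correlated at 0.80 to 0.95 over the 9 libraries, and Adrb3 ran the other way against each of these 5, at -0.68 to -0.38. Prdm16 correlated with Adrb3 at 0.80 and with those 5 at -0.13 to 0.18. These values include the differences between groups. In deviations from the group means the 5 correlated among themselves at 0.64 to 0.95. On that scale Adrb3 correlated with those 5 at -0.10 to 0.36 and Prdm16 with them at 0.22 to 0.62.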

How the data were processed

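The authors deposited estimated counts per gene with FPKM and TPM values for 18964 genes, per the file headers. The deposited counts need not be whole, and 88.8% were whole within a tolerance of 1e-09. Rnor_6.0, HISAT2 2.2.4 and Bowtie2 2.2.5 come from the submitters' processing notes, with the counting tool not given in the sources used here. No stranded kit is named, so overlapping genes cannot be told apart. The authors also deposited DESeq2 p-values, q-values and log2 fold changes, and their table is named where used. A further 45 columns of per-sample values were not used.

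Here the counts were rounded, filtered with filterByExpr to 14643 genes, scaled by TMM and fitted with edgeR 4.0.16 (R 4.3.3, quasi-likelihood, robust, all 9 libraries, group as the only term, 6 residual degrees of freedom), with Benjamini-Hochberg adjustment over all genes and a threshold of 0.05. The biological coefficient of variation was 23.3%. A script tested on simulated data preceded the fit. Alternatives used DESeq2 1.42.0, limma 3.58.1 on counts and on the authors' deposited FPKM values after log2 with a pseudocount of 0.1 or 1, other scalings, no filter, a replicate block and fits without each library. Relative values added 0.25 CPM before log2. Intervals are at 95% and floors of 3 counts cover counting error only. TPM values were used as deposited and not tested. The 9 genes, the lists and the comparisons were chosen with earlier results of these data known. All 9 genes were named, and from each list up to 3 called genes per comparison with the smallest p, with paralogues and a few others chosen after their values were seen. Values of some listed genes are not reported here. Promoters came from RefSeq on GRCr8 and were matched by symbol.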

Additional observations from a re-analysis of the deposited data

How the results depend on the processing

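In model against control vessels the 5 rises (Ppargc1a, Ucp1, Dio2, Cidea, Cox8b) kept their call in all 9 fits without 1 library and in the 10 other alternatives apart from the scaling to fat cell genes. Upper quartile scaling and library size alone moved the median of all genes to -0.14 and -0.28 and the share of higher calls to 37.7% and 24.8%, against 51.2% in the main analysis. Adrb3 was not called with no filter on low counts (adjusted p = 0.0584). Scaling to fat cell genes called 13058 genes in model against control, 1341 in BXD against model and 10442 in BXD against control, and the members it called in the last 2 numbered 1 and 3. Its signs turned for Cidea (-0.10), Cox8b (-0.19) and Cox7a1 (-1.20) in model against control, for Prdm16 (0.39) and Cox8b (0.041) in BXD against model, and for Ucp1 (-0.79), Cidea (-0.59), Dio2 (-0.25), Cox7a1 (-0.23) and Cox8b (-0.15) in BXD against control. In BXD against model the 9 calls over all genes became 16 with no filter, 1107 with DESeq2, 3 with limma-voom, 25 and 29 with FPKM at either pseudocount, 1 with only the 2 groups compared, and 1 to 154 without 1 library. DESeq2 called 4 of the brown fat genes there. The sign of Adrb3 in that comparison turned with limma-voom (-0.11), FPKM (-0.052 and -0.041), the replicate block (-0.080) and without model replicate 1 or 3 or BXD replicate 1 (-0.03, -0.10 and -0.70), with a range of -0.70 to 0.36 without 1 library. Prdm16 turned to 0.048 and 0.035 in model against control without control replicate 1 or model replicate 1 (range -0.46 to 0.048), and Ucp1 to -0.052 in BXD against control without control replicate 3 (range -0.052 to 0.54). In BXD against control the members called numbered 2 with upper quartile scaling, library size alone, limma-voom and FPKM at either pseudocount, 3 with DESeq2 and 1 to 3 without 1 library, and all genes called numbered 2728 to 4775 without 1 library. The added calls were Adrb3 in each of these settings but one, with Cox8b under DESeq2 and without model replicate 2, and Prdm16 without BXD replicate 1. Relative to fat cell genes, Ppargc1a differed by 2.50 (model against control) and 2.08 (BXD against control) on FPKM values. The cause of these shifts was not tested.

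Same-numbered libraries of different groups correlated at -0.43 to 0.09 in their deviations from the group means, and libraries of different numbers at -0.18 to 0.28. These values gave no sign that the numbers pair libraries, but with 3 libraries a group they cannot exclude it. The replicate block gave 5365 calls in model against control, 1 in BXD against model and, with Adrb3 added, 2 of the brown fat genes in BXD against control. Summing the Cox7a1 row with LOC687508, an alternative chosen after seeing the data, changed no call among the 8 genes. Elovl3 had too few counts to be tested, and 3 libraries a group limit the precision of every value.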

Other observations

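Of 3 regulatory genes named here after their values were seen, Cebpb and Irf4 had their highest level in BXD replicate 1. Ppara was lower in every BXD library than in any model or control library. Every BXD library lay below every model library for 11.8% of all genes, and below every control library for 24.8%. Of the brown fat factors, these 3 among them, 0 were called in BXD against model vessels by edgeR. Cebpb, an early factor of fat cell formation, was at 623, 202 and 129.8 CPM in BXD, 286, 439 and 264 CPM in model and 185, 105 and 127 CPM in control libraries. Irf4, a factor that brown fat uses in fasting, had 216, 155 and 73.5 CPM in BXD, 128, 68.4 and 54.9 CPM in model and 37.7, 44.6 and 32.7 CPM in control libraries, and was called higher in BXD than in control vessels (log2 fold change 1.95, SE 0.41). Ppara, a receptor for fatty acids, had 25.0, 21.3 and 18.3 CPM in BXD, 33.5, 73.3 and 26.3 CPM in model and 91.4, 63.8 and 37.6 CPM in control libraries, and was called lower in BXD than in control vessels (log2 fold change -1.58, SE 0.41).

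Other cell types were followed by their markers. Over all genes, 21.6% were called higher and 20.6% lower in model against control vessels, and 16.1% and 14.3% in BXD against control vessels. Of 6 genes that white fat expresses more than brown, 3 were called higher in model than in control vessels, Agt, Lep and Retn, and 0 lower. Of 8 smooth muscle genes, 0 were called higher and 5 lower in the same comparison. Without model replicate 2 or control replicate 3 the lower calls among them numbered 2. Lower calls over all genes numbered 2103 and 2224 in these fits, in place of 3016. Of 7 lymphatic endothelial genes, Lyve1 was called higher (log2 fold change 1.45, SE 0.16) and Prox1 lower (-1.83, SE 0.35). Of 17 tested striated muscle genes, 17 were called higher in BXD than in control vessels, 0 in model against control and 0 in BXD against model vessels. Without control replicate 3 only 1 was called in BXD against control vessels, and limma-voom called 0 there, with 1 at an unadjusted p under 0.05. Higher calls over all genes in BXD against control vessels numbered 1519 without control replicate 3 and 2194 with limma-voom. DESeq2 called 6 of the striated muscle genes higher in model than in control vessels and 8 higher in BXD than in model vessels. It called 3571 and 641 of all genes higher in these comparisons.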
